A study of Rattus norvegicus and Mus musculus with 61 samples.

Results

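Synaptic vesicle and SNARE genes were followed on the arrays of this series through injury of the parieto-occipital cortex in mouse and rat. The genes were those whose single annotated symbol begins with Syt, Snap, Stx or Vamp and a digit, with Stxbp, Rab3, Sv2 or Cplx, or is Syn1, Syn2, Syn3 or Syp. This name rule found 49 of 8251 mouse genes and 48 of 4736 rat genes, that is 97 of 12987 gene entries over both species. It covered 61 symbols, of which 36 were on both arrays. Where a gene had several probe sets (13 mouse and 17 rat members), the brightest one stood for it.

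Transmitter is released when a synaptic vesicle fuses with the nerve terminal's plasma membrane. Fusion is driven by SNARE proteins: synaptobrevin (Vamp1, Vamp2) on the vesicle zips together with syntaxin (Stx1a) and SNAP-25 (Snap25) on the plasma membrane. Synaptotagmins such as Syt1 and Syt2 sense the calcium that triggers fusion, complexins (Cplx1, Cplx2) clamp and assist the SNARE complex, Rab3 GTPases ready vesicles for release, and synapsins (Syn1, Syn2) tether the reserve pool. Synaptophysin (Syp) and the SV2 proteins are abundant vesicle membrane proteins, and in the cortex most of these transcripts are made by neurons. Other SNAREs of the same families (Snap23, Stx2, Vamp8 and others) serve fusion in many cell types. The name rule also took in Rab GTPases of the Golgi and other membranes (Rab31, Rab33a, Rab33b, Rab34, Rab35, Rab38) and Snap91, which encodes the clathrin adaptor AP180 that rebuilds vesicles after release.

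Cortex centred on the impact was hybridised to Affymetrix arrays, each array giving 1 signal per probe set on a linear scale. Mouse arrays held cortex disks of 4 mm pooled from 3 male C57BL/6 mice, taken after a controlled cortical impact under isoflurane (6 m/s, 1.5 mm deep) or after sham surgery. There were 3 injury and 2 sham arrays at each of 4, 8, 24 and 72 h, and 2 arrays of naive mice. Rat arrays held a disk of 7 mm from 1 male Sprague-Dawley rat, taken after fluid percussion under pentobarbital (2.5 atm) or after sham surgery. There were 5 injury and 4 sham arrays at 30 min, 3 and 4 at 4 h, 3 injury and 2 sham arrays at each of 8 h, 24 h, 72 h and 21 d, and 3 arrays of naive rats.

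Differences below are on the log2 scale, injury minus time-matched sham, with the standard error of limma. A change was called at an adjusted p below 0.05 over all genes tested in a comparison, and "rose" and "fell" are used of such calls. A gene was tested if its signal passed the 40th percentile of its species in at least 3 arrays. That left 41 of the 49 mouse members among 6348 genes and 44 of the 48 rat members among 4082 genes. The members that did not pass were Rab35, Rab3d, Syt6, Syt7, Syt8, Syt9, Syt10 and Vamp5 in mouse and Stx3, Stxbp2, Syt9 and Syt10 in rat. The arrays measure RNA of the whole disk, so fewer neurons and less RNA per neuron cannot be told apart.

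Some arrays stood apart. In rat, the median correlation with the other rat arrays was 0.608 and 0.731 for sham 4 h replicates 4 and 3, 0.798 for injury 30 min replicate 5 and 0.829 for sham 30 min replicate 3, against 0.864 to 0.943 for the other 35 arrays. The ratio of 3′ to 5′ Gapdh signal, a sign of RNA quality, was 0.242 and 2.63 in sham 4 h replicates 4 and 3 and 3.06 in injury 30 min replicate 5. It was 1.16 in sham 30 min replicate 3 and lay between 0.644 and 1.62 in the other rat arrays. Of the 8 pituitary markers measured in rat, the mean log2 level was 8.16 and 8.66 in sham 4 h replicates 3 and 4 and 8.23 in sham 30 min replicate 3, against at most 7.69 in the other rat arrays. The rat calls of members are therefore given with and without these 4 arrays. The next lowest correlation, 0.864, was that of injury 72 h replicate 2, which was kept in both. The 24 h arrays, injury and sham, followed with 0.864 to 0.876 and were also kept. Their median signals over all probe sets were 399 to 410. Injury 72 h replicates 2 and 3 had median signals over all probe sets of 390 and 326. The median was 261 in injury 72 h replicate 1 and 257 and 280 in the 72 h sham arrays. In mouse, all 22 arrays had a median correlation of at least 0.941, but both sham 4 h arrays carried pituitary transcripts: prolactin (Prl) reached 8270 and 8861 there, against 459 or less in the other mouse arrays. The mouse Gapdh ratio lay between 0.602 and 0.946. The 3′ to 5′ ratio of beta-actin was highest in sham 72 h replicate 1d, at 3.84, and lowest in the 3 injury arrays of 4 h, at 0.0552, 0.588 and 0.297, against 0.722 to 2.54 in the other mouse arrays. The part of these arrays in the results was not tested beyond the values given with and without them. The neuron markers were well measured throughout, with a mean log2 level of 11.1 to 11.7 over 22 genes in the mouse arrays.

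The rat promoters of 3 members called in mouse are printed to show the letters around the start of these genes. None of the 3 was called against sham in rat with all arrays. Each is 300 bases, from 250 before to 50 after the gene's start, in rat build GRCr8, from RefSeq. Capitals mark the palindrome TGACGTCA, the CREB-type full site, in Vamp1, the synaptobrevin that rose in mouse at 8 h (plus strand, chr4:159698644-159698943). They mark an SP-type GC box (GGGGCGGGG or its reverse complement CCCCGCCCC) in Stx1a, the plasma membrane syntaxin of the nerve terminal (minus strand, chr12:27306422-27306721). In Syp they mark a GC box of the same letters and an EGR-type site (GCGGGGGCG or its reverse complement CGCCCCCGC; minus strand, chrX:17536400-17536699).
Vamp1: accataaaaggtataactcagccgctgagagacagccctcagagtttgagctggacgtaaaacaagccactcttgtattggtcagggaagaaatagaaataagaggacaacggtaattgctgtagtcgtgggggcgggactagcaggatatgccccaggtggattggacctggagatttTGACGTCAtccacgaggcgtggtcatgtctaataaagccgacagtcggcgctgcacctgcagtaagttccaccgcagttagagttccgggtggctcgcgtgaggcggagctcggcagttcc
Stx1a: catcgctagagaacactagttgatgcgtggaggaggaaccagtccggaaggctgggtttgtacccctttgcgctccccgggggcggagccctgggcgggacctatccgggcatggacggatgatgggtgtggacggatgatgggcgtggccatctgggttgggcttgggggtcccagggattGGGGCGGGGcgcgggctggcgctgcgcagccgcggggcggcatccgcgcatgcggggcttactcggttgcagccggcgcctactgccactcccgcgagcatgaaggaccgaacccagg
Syp: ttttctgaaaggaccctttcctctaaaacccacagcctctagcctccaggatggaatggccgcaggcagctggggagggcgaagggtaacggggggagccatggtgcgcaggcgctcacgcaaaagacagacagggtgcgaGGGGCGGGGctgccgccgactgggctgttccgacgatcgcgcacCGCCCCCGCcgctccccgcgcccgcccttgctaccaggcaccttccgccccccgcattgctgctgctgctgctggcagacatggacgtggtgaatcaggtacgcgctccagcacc

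Promoters were at hand for 38 of the 48 rat members; those of Rab38, Snap25, Snap91, Syn3, Syt5, Syt7, Syt10, Syt12, Syt17 and Vamp3 were not used here. On either strand, the EGR-type letters stood in 8 of the 38 promoters (21.1%; Cplx1, Rab3d, Stxbp5, Syn1, Syn2, Syp, Syt1 and Vamp2), against 2.73% of 33469 rat promoters of the same length. The GC box stood in 13 (34.2%), against 9.73% of all promoters, and the CREB-type half-site (CGTCA or its reverse complement TGACG) in 13 (34.2%, Syt4 among them), against 21.2%. The palindrome TGACGTCA, which contains the half-site, stood in Syn1 and Vamp1, and in 1.83% of all promoters. The letters TATAAA were in 0 of the 38 promoters, against 14.2% of all. The member promoters were richer in G and C, with a median of 63.3% against 51.7% over all promoters, and the part of this composition in the motif counts was not tested. A match is a description of the letters and says nothing of binding.

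In mouse, injury against sham asked when after the impact these transcripts changed. All 4 h injury arrays of mouse carry the title letter a and the 4 h sham arrays b or c. Letter and injury therefore cannot be told apart at 4 h. At 4 h no member was called, at 8 h and 24 h 3 each, and at 72 h 11 of 41 (3 rose and 8 fell). Over all 6348 genes, the called share was 0.866% at 4 h, 8.19% at 8 h, 10.7% at 24 h and 15.5% at 72 h (9.85% higher and 5.69% lower). Among the members the share was 0%, 7.32%, 7.32% and 26.8% at these times, near the background at 8 h and 24 h. At 4 h, 6 members had an unadjusted p below 0.05 in limma, and the share of all genes at that threshold is not given here. The median difference of the tested members was -0.06 at 4 h, 0.04 at 8 h, -0.04 at 24 h and -0.08 at 72 h, against medians over all genes of 0.00, -0.03, -0.04 and -0.01.

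**Figure D1:**
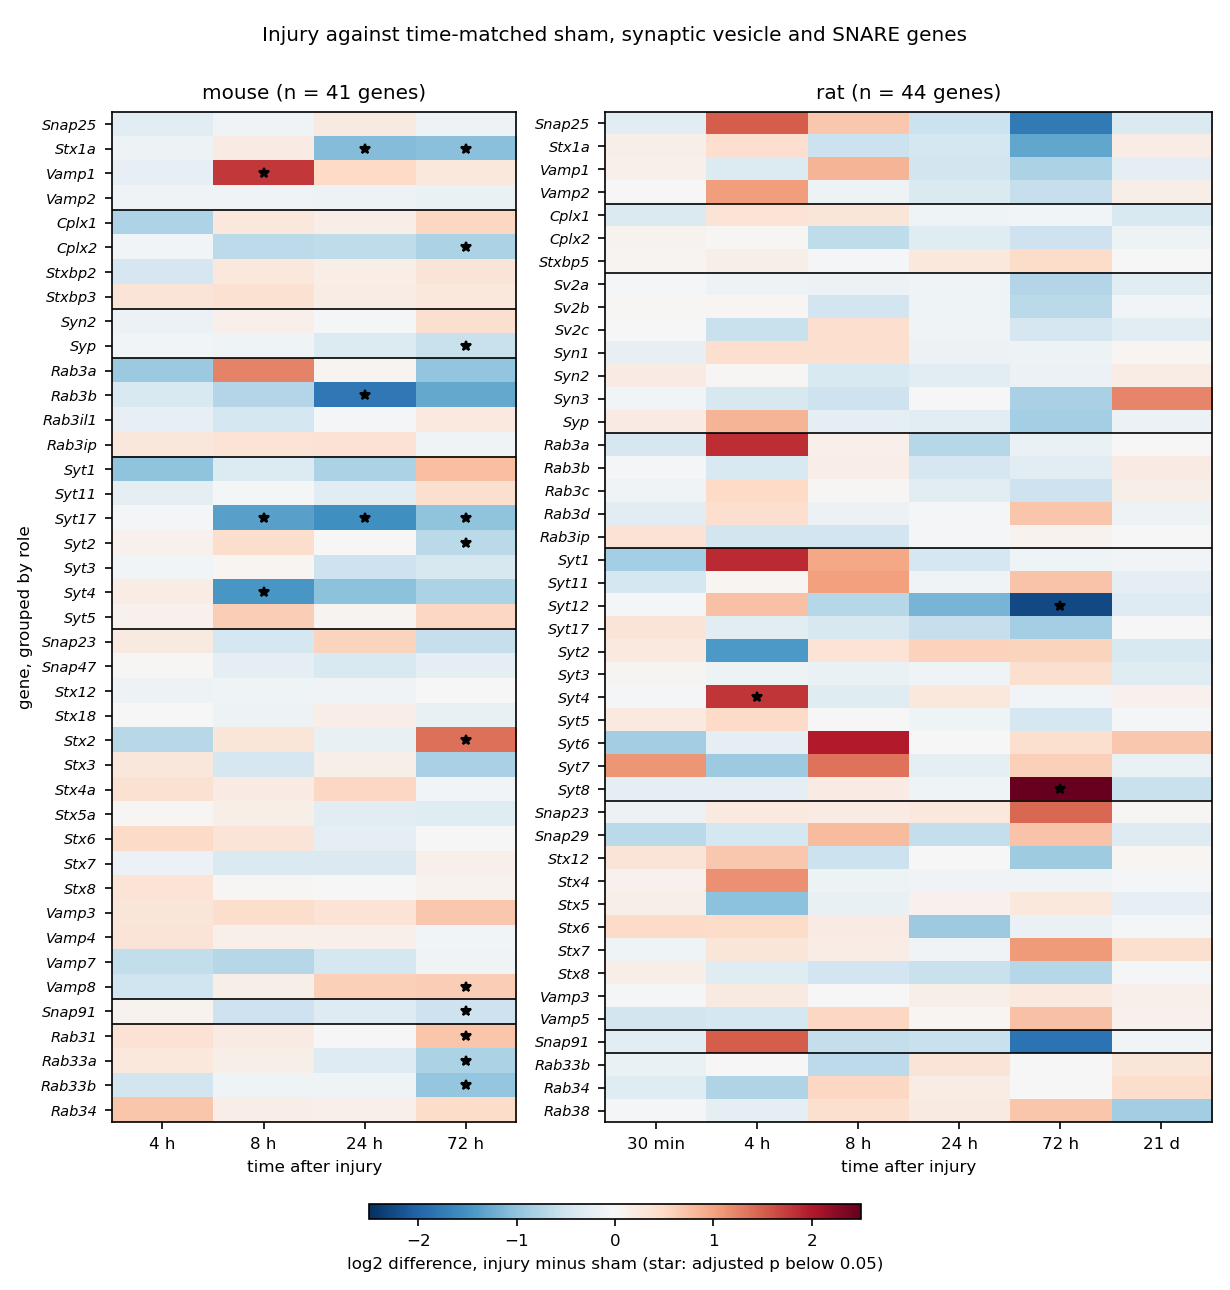
Log2 difference between injury and time-matched sham for every tested member (left, mouse, 41 genes; right, rat, 44 genes), by time after injury on the x axis and grouped by role on the y axis, with stars at adjusted p below 0.05 in limma. Mouse calls gather at 72 h, and the rat panel has 3 stars, Syt4 at 4 h and Syt12 and Syt8 at 72 h; colours are cut at -2.5 and 2.5.

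Among the neuronal SNAREs of mouse, Stx1a fell at both late times. At 24 h Stx1a read 1732, 4039 and 1942 in injured cortex, against 4519 and 5595 in sham cortex. At 72 h it read 2153, 3032 and 1957 after injury and 5442 and 4302 after sham surgery. The groups did not overlap at either time, although 1 injury array at 24 h lay close to the lower sham array. The difference was -1.08 ± 0.28 at 24 h (limma adjusted p = 0.0164) and -1.05 ± 0.28 at 72 h (adjusted p = 0.0142), which is 0.475 and 0.483 times the sham level. The naive arrays read 5035 and 5226, within the range of the sham arrays over all times.

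Its SNARE partners did not pass the test at these times. Snap25, the other plasma membrane SNARE, read 15916, 18040 and 14707 at 72 h after injury, against 22166 and 13926 in sham cortex, with overlapping groups (-0.12 ± 0.20, limma adjusted p = 0.777). Vamp2, the main vesicle SNARE of the forebrain, read 9833, 11339 and 10729 after injury, against 14394 and 9955 after sham surgery (-0.17 ± 0.22, adjusted p = 0.681). Neither was called at 4, 8 or 24 h. Of the 4 neuronal SNAREs, 1 fell at 72 h and 3 did not pass.

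Vamp1, the related synaptobrevin, rose at 8 h. It read 814, 677 and 594 in injured cortex, against 160 and 255 in sham cortex, with every injury array above both sham arrays (1.77 ± 0.41, limma adjusted p = 0.0102). The 8 h sham arrays were among the 3 lowest uninjured arrays of the species: the naive arrays read 906 and 486, and the sham arrays of the other times lay between 241 and 748. Against all uninjured arrays as 1 control group, the difference was 0.81 (adjusted p = 0.183). A dimmer probe set of Vamp1, which did not pass the filter, differed by 0.79 at 8 h.

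Among the SNARE regulators, Cplx2, a complexin, fell at 72 h. It read 1483, 1385 and 1281 after injury, against 1902 and 3004 in sham cortex (-0.79 ± 0.22, limma adjusted p = 0.0193). The groups did not overlap, nor did they at 8 h and 24 h, where the difference was -0.64 at each time with adjusted p of 0.0791 and 0.0678. Cplx1, the other complexin measured, read 3873, 3611 and 3749 at 72 h after injury, against 4931 and 1398 in sham cortex. Its sham arrays lay on both sides of the injury arrays, and the difference of 0.51 ± 0.35 did not pass (adjusted p = 0.385).

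Of the vesicle proteins, Syp fell at 72 h and Syn2 did not pass the test. Syp read 2267, 2032 and 2061 in injured cortex at 72 h, against 2820 and 3445 in sham cortex (-0.56 ± 0.17, limma adjusted p = 0.0324). All 3 injury arrays lay below both sham arrays, at 0.679 times the sham level. At 4, 8 and 24 h the Syp differences were -0.06, -0.12 and -0.35, with overlapping groups. Syn2, a synapsin, read 2484, 3342 and 2247 at 72 h after injury, against 3440 and 1189 in sham cortex (0.39 ± 0.33, adjusted p = 0.511).

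Rab3b, a Rab3 GTPase, fell at 24 h in mouse. It read 96.5, 361 and 194 after injury, against 602 and 713 in sham cortex, with every injury array below both sham arrays (-1.79 ± 0.50, limma adjusted p = 0.024). At 72 h the injury arrays read 101, 118 and 62.7, against 374 and 128 in sham cortex, a difference of -1.27 ± 0.50 that did not pass (adjusted p = 0.0951). Rab3a, the most studied Rab3 of synaptic vesicles, was not called at any time: its difference was 1.24 ± 0.42 at 8 h (limma adjusted p = 0.0761) and -0.99 ± 0.42 at 72 h (adjusted p = 0.124).

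Among the mouse synaptotagmins, Syt17, a relative known as B/K protein, fell at 8, 24 and 72 h, and no other member was called at 3 times. It read 465, 545 and 553 after injury at 8 h, against 1144 and 1546 in sham cortex. At 24 h it read 376, 694 and 343, against 1290 and 1291, and at 72 h 620, 821 and 575, against 1093 and 1632. At each of these times all 3 injury arrays lay below both sham arrays, while at 4 h the groups overlapped. The differences were -1.36 ± 0.28 at 8 h (limma adjusted p = 0.0045), -1.53 ± 0.28 at 24 h (adjusted p = 0.00146) and -1.01 ± 0.28 at 72 h (adjusted p = 0.0213). The 24 h call of Syt17 was the only member call that held under all alternatives run, each left-out array included.

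Syt4, a synaptotagmin of dense-core vesicles and dendrites whose mRNA is known to respond to neuronal activity, fell in mouse at 8 h. It read 409, 245 and 431 in injured cortex, against 1188 and 783 in sham cortex, without overlap (-1.46 ± 0.36, limma adjusted p = 0.0152). At 24 h and 72 h the injury arrays were again all below the sham arrays, with differences of -1.02 (adjusted p = 0.079) and -0.79 (adjusted p = 0.158). The naive arrays of Syt4 read 560 and 507, lower than every sham array.

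Syt2, a fast calcium sensor, fell at 72 h, with 965, 1362 and 846 after injury against 1473 and 1849 in sham cortex (-0.67 ± 0.20, limma adjusted p = 0.0297). A dimmer probe set of Syt2 gave the same difference, -0.67. Syt1, the main calcium sensor of cortical release, read 2715, 2033 and 1382 at 72 h after injury, against 5012 and 276 in sham cortex. Its 2 sham arrays lay far apart, above and below all injury arrays, and no comparison of Syt1 passed. Of the 7 tested synaptotagmins, 2 fell at 72 h and 5 did not pass.

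Members that serve membranes other than the synaptic vesicle held all 3 rises at 72 h in mouse. Stx2, a plasma membrane syntaxin of many cell types, read 1465, 1526 and 1386 after injury, against 972 and 323 in sham cortex (1.38 ± 0.34, limma adjusted p = 0.00906). The 323, from sham replicate 1d, was the lowest Stx2 signal of all mouse arrays. The Stx2 difference was 0.58 without sham replicate 1d and 2.2 without sham replicate 1c. Vamp8, an endosomal and secretory SNARE, read 2548, 1848 and 2138 after injury, against 1113 and 1764 in sham cortex (0.62 ± 0.20, adjusted p = 0.037). Neither gene's groups overlapped, but the upper Vamp8 sham array lay just under the lowest injury array. A second Vamp8 probe set differed by 1.22. Of the 15 tested SNAREs of other membranes, 2 rose, 0 fell and 13 did not pass.

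The Rab GTPases of other membranes split. Rab31, a GTPase of the Golgi and endosomes, rose to 1093, 1624 and 1274 at 72 h after injury, against 768 and 859 in sham cortex (0.69 ± 0.19, limma adjusted p = 0.0192). Rab33b, a Golgi GTPase that also serves autophagy, fell to 929, 721 and 907, against 1390 and 1966 (-0.97 ± 0.24, adjusted p = 0.00847), but a second probe set of it differed by only -0.05. Rab33a fell to 544, 690 and 481, against 751 and 1261 (-0.78 ± 0.21, adjusted p = 0.0155). Snap91, the clathrin adaptor, fell to 2372, 2185 and 2678, against 3189 and 3738 (-0.52 ± 0.17, adjusted p = 0.0475). In all 4 of these genes the injury and sham arrays were separate.

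**Figure D2:**
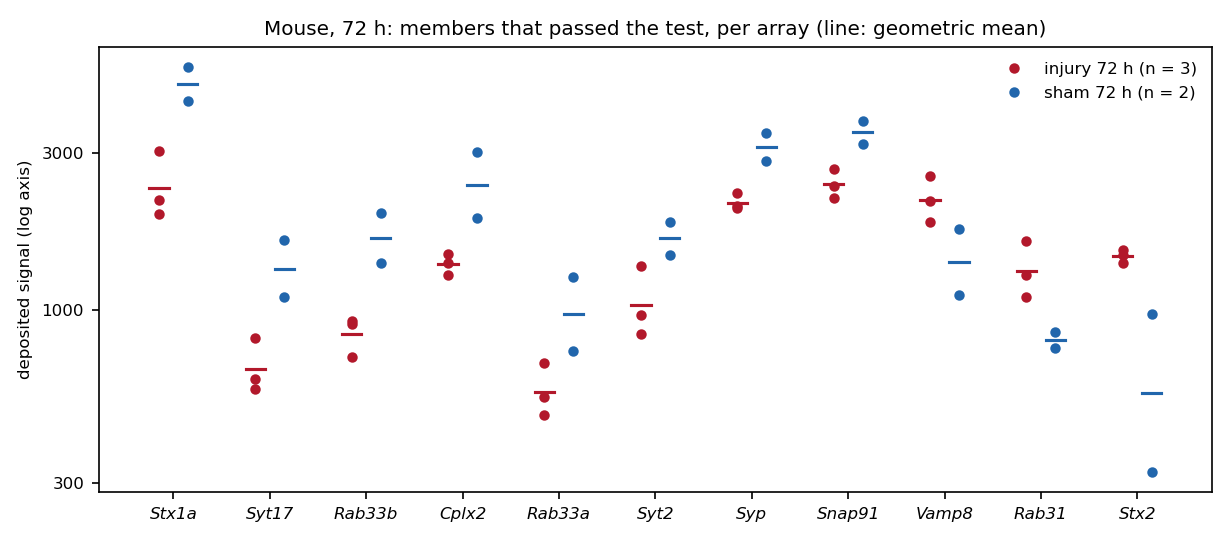
Deposited signal (log axis) of the 11 members called in mouse at 72 h, ordered by their log2 difference, with injury arrays (n = 3) left of sham arrays (n = 2) and lines at the geometric means. In each gene the injury arrays lie on 1 side of both sham arrays, lower in 8 genes and higher in Vamp8, Rab31 and Stx2.

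Separate groups were common in mouse at every time. At 4 h, where no member was called, 21 of the 41 tested members had groups without overlap (51.2%), 13 higher and 8 lower after injury, against 34.4% of all genes, 18.0% higher and 16.4% lower. At 8 h it was 16 members, against 38.1% of all genes, and at 24 h 13 (31.7%), against 36.8%. At 72 h it was 18 (43.9%), 5 higher and 13 lower, against 38.5% of all genes, 20.5% higher and 17.9% lower. The 72 h calls of the members depended on the sham arrays. Without sham replicate 1d, the array low in Syt1, Cplx1, Syn2 and Stx2 and with the highest beta-actin ratio, 3 members were called, 1 higher (Vamp8) and 2 lower (Stx1a and Rab3b), against 7.73% of all genes, 5.77% higher and 1.97% lower. Without sham replicate 1c 17 members were called and the direction was mixed, 8 higher and 9 lower, against 20.4% of all genes, 12.3% higher and 8.1% lower. Of the 8 higher ones then, 7 were not called with both sham arrays, among them Syt1 (2.84 ± 0.58, limma adjusted p = 0.00206), Cplx1 (1.42 ± 0.29, adjusted p = 0.00206) and Syn2 (1.16 ± 0.32, adjusted p = 0.0144). With the letter of the sample title as a block 1 member was called, and averaging the 2 sham arrays of a time also left fewer calls. The share of all genes called in these fits is not given here. Of 23 other presynaptic genes tested, 4 fell and 1 rose at 72 h. Pclo, a scaffold of the active zone, fell (-0.82 ± 0.18, limma adjusted p = 0.00349), as did Napb, the beta-SNAP protein that helps take spent SNARE complexes apart (-0.72 ± 0.19, adjusted p = 0.0148). Syngr1, a vesicle membrane relative of synaptophysin, rose (1.01 ± 0.20, adjusted p = 0.00154). Napb and Cadps, a priming factor of dense-core vesicles, also fell at 8 h (-1.05 ± 0.19 and -0.64 ± 0.17, adjusted p = 0.00163 and 0.0233), and Unc13b, a vesicle priming factor, at 24 h (-0.67 ± 0.18, adjusted p = 0.0242).

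Cell type markers were called in mouse at 8, 24 and 72 h. Of 15 tested microglia and macrophage markers 7 rose at 8 h and 10 at 24 h. At 72 h, of these 15 markers 14 rose, with a median difference of 2.61. The mean log2 level of the 17 measured ones was 10.7 to 11.0 in injured cortex, against 8.50 to 8.52 in sham cortex. At 72 h 5 of 8 oligodendrocyte and myelin markers rose (median 0.72), 4 of 11 endothelial and pericyte markers (median 0.60) and 3 of 9 astrocyte markers (median 0.16), and 0 of these fell. Of 22 neuron markers 1 rose and 2 fell, with a median of -0.29, and their mean log2 level was 11.2 to 11.3, against 11.1 to 11.6. The part of these markers in the member results was not tested.

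The effect at 72 h minus that at 4 h was called for 3 mouse members, 2 higher and 1 lower, against 5.23% of all genes (3.61% higher and 1.62% lower). Stx2 (2.07 ± 0.48, limma adjusted p = 0.0138) and Vamp8 (1.12 ± 0.28, adjusted p = 0.02) had the higher effect at 72 h, and Rab33a the lower one (-1.04 ± 0.30, adjusted p = 0.0472). These use the 4 h arrays, where title letter and injury cannot be told apart in mouse. The 4 h sham arrays also carried pituitary transcripts. In them Stx2 read 996 and 1067 and Vamp8 1292 and 1346. The injury arrays of that time read 421 to 859 and 808 to 1015. At 72 h alone the Stx2 difference was 0.58 without sham 72 h replicate 1d. Leaving out sham 4 h replicate 1c left 0 calls and leaving out replicate 1b left 1.

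In rat, the same comparison ran from 30 min to 21 d. At 30 min, 8 h, 24 h and 21 d no member was called in limma, where 0.0245%, 0.71%, 0.269% and 0% of all genes were. An unadjusted p below 0.05 was seen in 2, 3, 1 and 1 members. The share of all genes at that unadjusted threshold is not given here. Without the 4 arrays that stood apart no member was called at 30 min, 24 h and 21 d, with 0%, 0.833% and 0% of all genes called. At 4 h 1 of 44 rose (2.27%), against 5.05% of all genes called either way and 2.96% higher. At 72 h 1 rose and 1 fell (4.55%), against 2.77% of all genes, 2.11% higher and 0.661% lower. The median member difference was 0.05 at 4 h, -0.11 at 24 h and -0.12 at 72 h, against medians over all genes of -0.12, 0.00 and 0.07.

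Syt4 rose at 4 h in rat. It read 2654, 2431 and 4032 in injured cortex, against 1563, 1684, 763 and 274 in sham cortex, with all injury arrays above all sham arrays (1.78 ± 0.40, limma adjusted p = 0.0138). A second Syt4 probe set differed by 1.69. The lowest sham values, 763 and 274, came from replicates 3 and 4, which stood apart. Without the 4 arrays that stood apart the difference was 0.87 ± 0.32 and no longer passed (adjusted p = 0.267); 1.08% of all genes were called in that fit. All 4 h injury arrays carry the title letter b and all 4 h sham arrays the letter a, so letter and injury cannot be told apart at this time, and with the letter as a block the Syt4 difference was 1.44 (adjusted p = 0.729). The naive rats read 3548, 2587 and 2596, within the range of the injured ones. In mouse the 4 h difference of Syt4 was 0.18 ± 0.36, with overlapping groups (adjusted p = 0.944).

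Most but not all core release genes had their lowest sham signal at 4 h in those replicates. Of 13 core members, replicates 3 and 4 were both below the other 2 sham arrays in 10 and both above them in 2 (Vamp1 and Sv2b), and Stx1a was highest in replicate 4. Over the 44 tested members these counts were 20 below, 11 above and 13 neither. Snap25 read 9650, 7087 and 10323 in injured cortex, against 10495, 7200, 2855 and 446 in sham cortex, with overlapping groups. Its difference of 1.51 ± 0.55 (limma adjusted p = 0.0797) became 0.03 ± 0.34 without the arrays that stood apart. Rab3a read 3890, 3935 and 6041, against 7313, 5600, 465 and 132, and its difference turned from 1.85 to -0.50. For Syt1 the difference was 1.87 with all arrays and 0.44 without those 4, and for Vamp2 1.05 and 0.06. Vamp1 read 1995 and 2725 in sham replicates 3 and 4, against 1222 and 1201 in replicates 1 and 2. Rims1, an active zone scaffold, was the only one of 30 other presynaptic genes called at 4 h (2.20 ± 0.58, adjusted p = 0.034), and it did not pass without the 4 arrays (0.86 ± 0.39, adjusted p = 0.436).

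At 72 h in rat Syt12, a synaptotagmin found on synaptic vesicles, fell. It read 146, 60.8 and 28.9 after injury, against 293 and 343 in sham cortex, all lower (-2.26 ± 0.50, limma adjusted p = 0.00956). The 28.9 lay below the floor signal of 32.3 and was set to it, and all these injury values lay below the filter signal of 203. The Syt12 injury arrays were also all lower than sham at 8 h (159, 136 and 233, against 254 and 311) and at 24 h (85.2, 81.4 and 155, against 197 and 267). The differences of -0.72 and -1.16 at these times did not pass. By 21 d it read 256, 201 and 297, against 305 and 315 in sham cortex. Syt12 had no probe set with its symbol on the mouse array.

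Syt8, a synaptotagmin that does not bind calcium, rose at 72 h. It read 276, 446 and 466 after injury, against 71.9 and 63.8 in sham cortex (2.51 ± 0.58, limma adjusted p = 0.0129). The 72 h sham arrays were the lowest of all uninjured rat arrays for this gene, of which the others read 108 to 1004. At 24 h both groups were high, with 1105, 945 and 692 after injury and 939 and 1004 after sham surgery. The 24 h arrays as a set correlated less with the other rat arrays than most did. Against all uninjured arrays as 1 control group the 72 h difference was 0.77 (adjusted p = 0.523).

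At 72 h the neuronal SNAREs of rat had values below sham and none was called. Groups did not overlap in 17 of the 44 tested members (38.6%), 5 higher and 12 lower, against 34.4% of all rat genes, 19.3% higher and 15.1% lower, so separate groups of a gene that was not called are a description. Snap25 read 5996, 4264 and 1762 in injured cortex, against 11930 and 12221 in sham cortex, so all injury arrays lay below both sham arrays. The difference was -1.76 ± 0.66 (limma adjusted p = 0.161). Other Snap25 probe sets differed by -1.78, -1.14 and -0.08. Stx1a read 7241, 4909 and 2344 after injury, against 11926 and 9588 (-1.29 ± 0.45, adjusted p = 0.127), also without overlap. Vamp2 read 8200, 6087 and 4006, against 7430 and 10360, and overlapped (-0.59 ± 0.47, adjusted p = 0.634). All 4 neuronal SNAREs had a difference below 0, with a median of -1.05.

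All 7 vesicle proteins likewise had a difference below 0 at 72 h in rat and none was called, with a median of -0.68 against 0.07 over all genes. Syp read 6307, 4258 and 2807 in injured cortex, against 8006 and 7223 in sham cortex (-0.85 ± 0.37, limma adjusted p = 0.244). Sv2a, the vesicle protein that binds the antiepileptic drug levetiracetam, read 1179, 821 and 883, against 1506 and 1667 (-0.74 ± 0.26, adjusted p = 0.139). In both genes all injury arrays lay below the sham arrays. Syn1 read 3052, 3900 and 2646, against 3326 and 3602, and differed by -0.13, and Sv2b by -0.68; both overlapped.

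Leaving out the 4 arrays that stood apart, none of which is a 72 h array, changed these calls through the shared estimate of spread. The 72 h differences stayed the same and 8 of 44 members were called (18.2%), 6 lower and 2 higher, against 9.24% of all genes, 3.9% lower and 5.34% higher. Then Snap25 (adjusted p = 0.00114), Stx1a (adjusted p = 0.0127), Syp (adjusted p = 0.0133), Sv2a (adjusted p = 0.0368), Snap91 (-1.84 ± 0.44, adjusted p = 0.00793) and Syt12 (adjusted p = 0.00147) were lower in limma. Syt8 (adjusted p = 0.00232) and Snap23 (1.43 ± 0.39, adjusted p = 0.0204), the SNAP-25 relative of other cell types, were higher. At 8 h 1 member, Syt6, was called without these arrays (1.99 ± 0.45, adjusted p = 0.0119), against 1.79% of all genes. Syt6 read 238, 182 and 218 at 8 h after injury, against 22.2 and 87.9 in sham cortex. These sham arrays were the lowest of all uninjured rat arrays for this gene, of which the others read 98.6 to 574. The lower one lay below the floor signal of 32.3. The naive rats read 287, 237 and 219. Snap23 and Syt6 are named here because of their calls without the 4 arrays that stood apart.

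The lower members at 72 h in rat went with lower neuron markers. Of 17 tested neuron markers 16 had a difference below 0 and 3 fell (Nefm, Map2 and Thy1), with a median of -1.05. Their mean log2 level was 10.4 to 11.2 in injured cortex, against 11.8 in both sham arrays. Of 9 microglia and macrophage markers 5 rose, with a median of 2.15, and the mean level of the 11 measured ones was 9.78 to 10.8, against 8.67 to 8.68. The part of these markers in the member results was not tested. At 21 d the neuron markers stood at 11.5 to 11.8, against 11.7 to 11.8 in sham cortex, and Snap25 read 9110, 8142 and 10938, against 11013 and 12911. Stx1a read 8691, 11871 and 9014 at 21 d, against 9208 and 8091, and the groups overlapped.

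**Figure D3:**
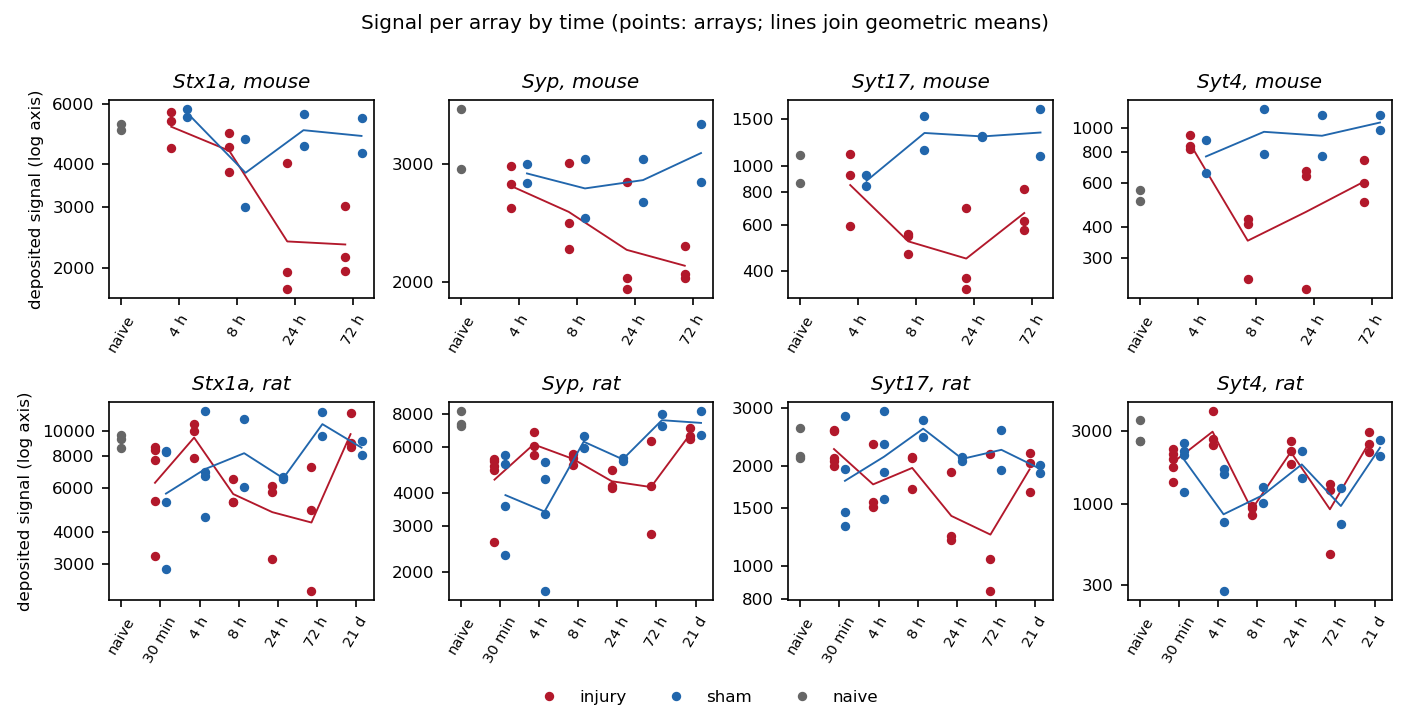
Deposited signal per array (points, log axis) of Stx1a, Syp, Syt17 and Syt4 by time after surgery on the x axis, mouse above and rat below, with injury left of sham and lines through the geometric means; naive arrays stand at the left end. Stx1a, Syp and Syt17 of mouse are below sham at 72 h, and rat Syt4 is above sham at 4 h.

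The change of the injury effect between 4 h and 72 h was called for 5 rat members (11.4%), 1 higher and 4 lower, against 4.68% of all genes (2.77% higher and 1.91% lower). Snap25 (-3.27 ± 0.86, limma adjusted p = 0.028), Snap91 (-3.35 ± 0.81, adjusted p = 0.0205), Syp (-1.70 ± 0.48, adjusted p = 0.037) and Syt12 (-2.99 ± 0.65, adjusted p = 0.0118) had the lower effect at 72 h, and Syt8 the higher one (2.73 ± 0.75, adjusted p = 0.0336). For Snap91 the arrays read 453, 675 and 635 after injury and 416, 550, 76.1 and 98.2 after sham surgery at 4 h. At 72 h they read 320, 109 and 106 after injury, against 669 and 459. The low sham values at 4 h were again replicates 3 and 4. Over all genes this contrast had a median of 0.23. With the title letter as a block, where letter and injury cannot be told apart at 4 h, 0 of the 5 members were called, with adjusted p of 0.347 to 0.378 and differences of the same signs.

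Without the 4 arrays that stood apart, the 4 h to 72 h contrast was smaller in the falling genes. Snap25 gave -1.80 ± 0.48 (limma adjusted p = 0.0405), Syp -1.18 ± 0.31 (adjusted p = 0.0391), Syt12 -2.30 ± 0.63 (adjusted p = 0.0472) and Snap91 -2.12 ± 0.62 (adjusted p = 0.0594). Stx1a was then called too (-1.78 ± 0.47, adjusted p = 0.0405), and Syt8 remained higher (2.95 ± 0.74, adjusted p = 0.0276). The called share of all genes was 2.13% in that fit.

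**Figure D4:**
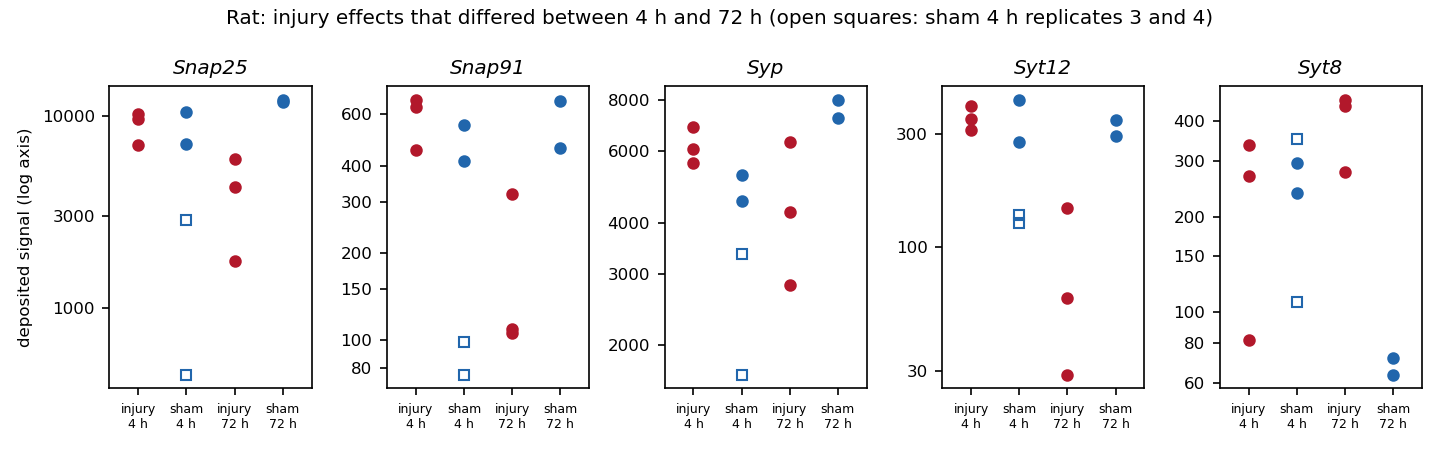
Deposited signal per rat array (log axis) of the 5 members whose injury effect differed between 4 h and 72 h, with injury left of sham at each time. Open squares are sham 4 h replicates 3 and 4; in Snap25, Snap91, Syp and Syt12 these are the lowest sham arrays, and the 72 h injury arrays lie below the 72 h sham arrays in Snap25, Snap91, Syp and Syt12.

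The 2 species were set side by side by symbol. Of 27 symbols tested in both, 13 were lower and 3 higher after injury in both species at 72 h, and 11 had opposite signs. At 4 h 17 of the 27 had opposite signs, and 12 with the rat fit without the 4 arrays that stood apart. The mouse side rests on the sham arrays with pituitary transcripts, and letter and injury cannot be told apart at 4 h in either species. The 72 h counts were the same in that rat fit. Of the 11 members called in mouse at 72 h, 7 were tested in rat and 6 of these had the same sign there, but 0 were called in both. The share of equal signs over all genes tested in both species is not given here. The sign counts therefore do not show whether members matched between species more than other genes. The difference at 72 h was -1.05 in mouse and -1.29 in rat for Stx1a, -0.56 and -0.85 for Syp, -1.01 and -0.85 for Syt17, and -0.79 and -0.53 for Cplx2. Snap91 differed by -0.52 in mouse and -1.84 in rat, Rab33b by -0.97 and -0.01, and Syt2 by -0.67 and 0.56. The injuries, arrays, disk sizes and pooling differed between the species, and no test compared them.

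Sham surgery was also set against naive animals. All rat sham arrays carry the title letter a and the naive rat arrays b or c. Mouse sham arrays carry b, c or d and the naive mouse arrays a. Letter and surgery therefore cannot be told apart within this comparison. The mouse sham mean also includes the 4 h arrays with pituitary transcripts. No member was called in limma, in mouse or in rat, where 0.11% and 0.0245% of all genes were. An unadjusted p below 0.05 was seen in 5 mouse and 6 rat members. The share of all genes at that unadjusted threshold is not given here. The mean of the mouse sham groups minus naive ran from -0.95 (Vamp1) to 0.79 (Syt4) over the 41 tested members. In rat it ran from -1.35 (Syt1) to 0.76, with a median of -0.22 against 0.03 over all genes. Without the 4 rat arrays that stood apart no rat member was called either, with 0.049% of all genes called, and the range was -1.10 (Syt1) to 0.77 (Rab38). Mouse Snap25 differed by -0.66 ± 0.18 (adjusted p = 0.195), with 26822 and 25606 in naive cortex, above every sham array.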

How the data were processed

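The authors deposited linear intensities, 1 for each probe set on an array; how these intensities were made from the scans is not given in the sources used here. The files carry no detection calls, and the number of arrays limits the precision. Median signals were 286 to 343 over the mouse arrays and 231 to 410 over the rat arrays. Before log2 was taken, intensities below the 10th percentile of the species (24.1 for mouse, 32.3 for rat) were set to it. Control probe sets (66 and 59), probe sets with several gene symbols (396 and 308) and with none (1193 and 1426) were left out. Gene names came from GEO's platform annotation, and all 48 rat members matched RefSeq by gene ID. Genes above the pooled 40th percentile (194 and 203) in at least 3 arrays were tested.

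For each species limma 3.58.1 (R 4.3.3) fitted group means to all arrays in 1 model, with trended empirical Bayes variances, and p-values were adjusted by Benjamini-Hochberg within a comparison. The fit was tested on simulated data. Rat disks came from 1 animal per array; nothing says whether the 2 mouse sham arrays of a time (titles 1b, 1c and 1d) are separate pools, so p-values measure the spread between arrays. Of 15 pairs of same-numbered rat arrays, 4 correlated above 0.1 in their deviations, and the main fit took the number as no pairing. At 30 min the correlations were 0.356, 0.249, -0.41 and 0.359, so whether the number marks pairs at that time cannot be judged. The alternatives changed the scaling (quantile normalization), dropped the filter, raised the floor to the 25th percentile, averaged all probe sets of a gene, or took the title letter or the replicate number as a block. Others used all uninjured arrays as 1 control, averaged the mouse sham arrays, or left out the 4 rat arrays that stood apart or each array in turn. Text names the core release genes, every called member (up to 10 by adjusted p in a comparison, and the 11th at mouse 72 h, Snap91) and up to 3 called genes of the other presynaptic list. The members and lists were chosen with earlier results of these data known. Promoters were from RefSeq, rat build GRCr8. Plots were made in Python 3.11.15 (matplotlib 3.10.9).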

Additional observations from a re-analysis of the deposited data

Results flagged for a closer look

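The injury effect differed between 72 h and 4 h, by a test of the difference itself in limma, for 3 mouse members (Stx2 by 2.07, Vamp8 by 1.12 and Rab33a by -1.04) and 5 rat members (Syt12 by -2.99, Snap91 by -3.35, Snap25 by -3.27, Syp by -1.70 and Syt8 by 2.73). The mouse values use the sham 4 h arrays with pituitary transcripts, and the rat values use the sham 4 h replicates that stood apart. Letter and injury were not separable at 4 h in either species.

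Only the 3 groups with 4 or more arrays were examined for single far arrays (rat injury 30 min, sham 30 min and sham 4 h), over 21 named members each. An array lay far from the rest in 5 of these 63 gene and group pairs, all in injury at 30 min; chance alone flags about 1 in 20. In replicate 5 of that group Rab3a read 350, against 4354 to 6473 in the other 4 arrays, and Syt1 read 45.8, against 614 to 759. In the same array Syp read 2615, against 4912 to 5400, and Snap91 read 199.6, against 433 to 585. This array had a Gapdh 3′ to 5′ ratio of 3.06. In replicate 4 Rab33b read 96.4, against 348 to 530 in the others. The check takes 1 array at a time, so arrays that lie apart together can go without a flag. In sham 4 h Rab3a read 465 and 132 in replicates 3 and 4, against 7313 and 5600 in replicates 1 and 2, and was not flagged.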

How the results depend on the processing

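Of 28 calls of a member in a comparison, 3 held under all alternatives other than leaving out 1 array and 1 (Syt17, mouse 24 h) under these too. Of 570 pairs of member and comparison not called, 42 were called under at least 1 alternative other than leaving out 1 array. One of them changed sign: rat Syt8 at 24 h differed by 1.99 against all uninjured arrays (limma adjusted p = 0.0135) and by -0.11 against its own sham. The 24 h rat arrays, sham included, correlated less with the other rat arrays than most did. No paired analysis was possible in mouse because injury and sham arrays share fewer than 2 replicate numbers. In rat the replicate block left 1 member called at 4 h, 2 at 72 h and 5 for 72 h minus 4 h, as without it. The title letter could not be fitted as a block for mouse 4 h, sham against naive or 72 h minus 4 h.

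The number of mouse members called changed as follows, and the cause was not tested. The share of all genes called is not given beside these counts or the rat counts below. They therefore do not show whether members moved more than other genes. At 4 h it was 0, and 1 against all uninjured arrays. At 8 h it was 3, then 5 with the title letter as a block, 5 against all uninjured arrays, 0 with averaged sham arrays, and 1 to 4 when 1 array was left out (1 without sham 1b). At 24 h it was 3, then 5 with quantile normalization, 10 against all uninjured arrays, 1 with averaged sham arrays, and 1 to 6 when 1 array was left out (1 without injury 1 or sham 1d, 6 without injury 2). At 72 h it was 11, then 7 with the mean of probe sets, 1 with the title letter, 2 with averaged sham arrays, and 3 to 17 when 1 array was left out (3 without injury 3 or sham 1d, 17 without sham 1c). Sham against naive gave 0, and 0 to 1 when 1 array was left out (1 without sham 24 h 1c). For 72 h minus 4 h it was 3, then 1 with averaged sham arrays, and 0 to 9 when 1 array was left out (0 without sham 4 h 1c, 9 without sham 72 h 1c, 1 without injury 4 h 1, injury 72 h 1, sham 4 h 1b or sham 72 h 1d).

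In rat at 4 h 1 member was called, then 2 with the floor at the 25th percentile, 2 with the mean of probe sets, 0 with the title letter, 0 against all uninjured arrays, 0 without the 4 arrays that stood apart, and 0 to 12 when 1 array was left out (0 without injury 3 or sham 4, 10 without sham 1, 12 without sham 2). At 8 h it was 0, and 1 without the 4 arrays. At 24 h it was 0, and 5 against all uninjured arrays. At 72 h it was 2, then 5 against all uninjured arrays, 8 without the 4 arrays, and 0 to 9 when 1 array was left out (9 without injury 1, 1 without injury 2, 0 without injury 3, sham 1 or sham 2). For 72 h minus 4 h it was 5, then 2 with quantile normalization, 0 with the title letter, and 0 to 9 when 1 array was left out (9 without injury 72 h 1 or sham 4 h 1, 8 without sham 4 h 2, 3 without injury 4 h 1 or sham 4 h 4, 2 without injury 4 h 3, 1 without injury 72 h 2, 0 without injury 72 h 3 or either sham 72 h array). A lone sham array is assumed by limma to have the spread of other groups. With 2 sham arrays at most times, differences of the size seen in Syp or Snap91 rest on the spread shared over groups.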

Other observations

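Mouse Syt8 did not pass the signal filter and was not tested. It read 230, 77.8 and 151 at 72 h after injury, against 65.0 and 49.8 in sham cortex, and sham 24 h replicate 1c read 145, above 1 of these injury arrays; only 1 of 22 arrays exceeded the filter signal. Rat Rab3b, the symbol that fell in mouse at 24 h, read 2424, 1231 and 1245 at 24 h after injury, against 1758 and 2457 in sham cortex, and overlapped. Of the other presynaptic genes of rat, Napa, the alpha-SNAP that helps take SNARE complexes apart, and Slc32a1, the vesicular transporter of inhibitory transmitters, had a lower injury effect at 72 h than at 4 h in limma (-1.62 ± 0.44, adjusted p = 0.0309, and -1.68 ± 0.51, adjusted p = 0.0487); without the 4 arrays that stood apart neither passed (-1.01 ± 0.30, adjusted p = 0.0651, and -0.96 ± 0.35, adjusted p = 0.122). In mouse Syngr1 had a higher effect at 72 h than at 4 h (1.20 ± 0.28, adjusted p = 0.0138).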
